A study of Rattus norvegicus with 28 samples.

Results

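The NMDA receptor subunits described here are the 6 genes of the deposited count table named Grin1, Grin2a, Grin2b, Grin2c, Grin2d and Grin3a, taken by gene name from 36387 genes and assembled transcripts. All 6 passed the filter on low counts, which left 17404 genes for testing. RNA came from the prefrontal cortex of male Sprague-Dawley rats, adults that arrived at 8 weeks of age. Each rat was injected intraperitoneally with either ketanserin or the Tween vehicle it was dissolved in, next with either psilocybin or saline, and tissue was collected after 24 h. The protocol gives the injections in that order, whereas the series description calls them simultaneous. The 28 libraries form 7 groups of 4 animals: vehicle with saline (called vehicle), vehicle with psilocybin at 1 or 3 mg/kg, ketanserin at 1 or 3 mg/kg with saline, and both drugs together, each at 1 mg/kg or each at 3 mg/kg. All groups therefore had the same number of injections, and the 6 comparisons with vehicle share the same 4 vehicle libraries. Psilocybin is a serotonergic psychedelic, and ketanserin is a serotonin receptor antagonist used to block it.

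NMDA receptors are glutamate-gated ion channels of the excitatory synapse that pass calcium once glutamate and a co-agonist, glycine or D-serine, are both bound. Every receptor contains GluN1, the product of Grin1, which binds the co-agonist, together with GluN2 subunits, which bind glutamate and set opening time and magnesium block. GluN2A and GluN2B are known as the main GluN2 subunits of the adult forebrain, GluN2C is best known from cerebellar granule cells and astrocytes, GluN2D from interneurons, and GluN3A as a subunit that lowers calcium entry and is most abundant in early life.

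The libraries held 12783067 to 18538414 counts each. Levels are given as CPM, read counts scaled to the library total and its TMM factor. Markers of excitatory neurons summed to 2583 to 3432 CPM per library, interneuron markers to 905 to 1621 CPM and astrocyte markers to 2787 to 4042 CPM. Markers of cerebellar granule cells and of olfactory bulb summed to at most 10.8 and 12.6 CPM, and Cbln3, Fat2, Eomes and Tbx21 did not pass the filter. Striatum markers, all 7 tested, summed to 311 to 531 CPM per library. Markers of myelin and mature oligodendrocytes varied most, from 2466 to 9039 CPM. One library, replicate 4 of the group given both drugs at 3 mg/kg, stood apart, with 19602 genes at a count of 0 against 15344 to 16657 in the other 27 libraries. Subunit values that it moves most are also given without it. In bulk tissue, fewer cells of a type and less RNA per cell cannot be told apart.

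Within the gene models used for counting, Grin1 was by far the most abundant subunit transcript, and Grin2a and Grin2b did not lead the GluN2 transcripts. Reads outside these models do not enter the levels, and how many there are for each gene was not tested. Per length, as the authors' deposited FPKM (fragments scaled to the length of the gene model and the depth of the library), Grin1 had a median of 151 over the 28 libraries, with a range of 128 to 167. Grin2c followed at a median of 32.4 FPKM (range 26.1 to 36.8), then Grin2d at 6.02 FPKM (4.76 to 7.70). Grin2b had a median of 4.90 FPKM (2.81 to 22.8), Grin2a 2.97 FPKM (0.778 to 12.9) and Grin3a 1.83 FPKM (0.305 to 5.54). These last 3 highest values are those of the library that stood apart, and without it the highest were 7.63 FPKM for Grin2b, 7.68 for Grin2a and 3.06 for Grin3a. Of the summed FPKM of the 6 genes, Grin1 made up a median of 75.7%, Grin2c 16.4%, Grin2d 3.06%, Grin2b 2.44%, Grin2a 1.62% and Grin3a 0.994%.

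The first steps of this order held in each of the 28 libraries. Grin1 was above Grin2c by 4.10- to 5.19-fold in FPKM, and Grin2c was above Grin2d by 4.52- to 6.69-fold. The lower neighbours overlapped. Grin2d was above Grin2b in 22 of 28 libraries, Grin2b above Grin2a in 25, and Grin2a above Grin3a in 26. The ratio of Grin2d to Grin2b ran from 0.268 to 2.21, and from 0.784 without the library that stood apart, so their order was not the same in every library. Whether these neighbours differ in level was not tested.

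**Figure D1:**
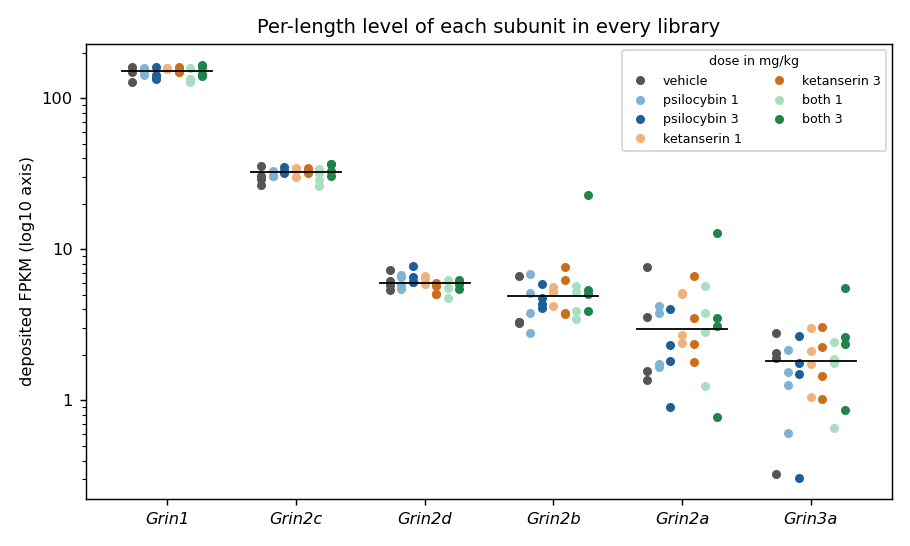
Deposited FPKM (log10 axis) of each NMDA receptor subunit in the 28 libraries, ordered by median; points are libraries coloured by group (dose in mg/kg) and black lines are medians over all libraries. Grin1 (median 151) and Grin2c (median 32.4) lie clear of the rest, whereas Grin2d, Grin2b, Grin2a and Grin3a overlap, and the last 3 spread widely.

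The genes also differ in how they lie on the genome (build rn6, coordinates of the deposited table). Grin1 (ENSRNOG00000011726) spans 27.8 kb at chr3:2506896-2534663 on the minus strand, and Grin2c (ENSRNOG00000003280) 18.0 kb at chr10:103798291-103816287, also minus. Grin2d (ENSRNOG00000021063) spans 36.4 kb at chr1:101820461-101856881 on the minus strand. The other members are long genes. Grin2a (ENSRNOG00000033942) spans 189.7 kb at chr10:5930298-6119990 on the plus strand, and Grin2b (ENSRNOG00000008766) 439.5 kb at chr4:169560387-169999873 on the minus strand. Grin3a (ENSRNOG00000005723) spans 144.4 kb at chr5:64928620-65073012 on the minus strand. The exon models used for counting ran from 3217 bases for Grin3a to 5261 bases for Grin2b, and FPKM divides each gene by its own model length. Other gene records lie on the loci of Grin1 (Lrrc26 and AABR07051241.1), Grin2b (AABR07062334.1) and Grin3a (Ppp3r2), but none of them reached more than 11 counts in any library. Whether transcripts extend beyond these gene models was not tested.

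RefSeq upstream sequence (build GRCr8) was at hand for 4 of the 6 members, Grin1, Grin2c, Grin2d and Grin3a. The 150 bases that end at each annotated start are printed because they place the 3 members with steady levels beside Grin3a, whose level varied widely between animals. They read 5′ to 3′ in the direction of the gene, all on the minus strand, and capitals mark the dinucleotide CG, which reads alike on both strands. The windows are chr3:28528755-28528904 for Grin1, chr10:101005139-101005288 for Grin2c, chr1:105481237-105481386 for Grin2d and chr5:69001559-69001708 for Grin3a.
Grin1: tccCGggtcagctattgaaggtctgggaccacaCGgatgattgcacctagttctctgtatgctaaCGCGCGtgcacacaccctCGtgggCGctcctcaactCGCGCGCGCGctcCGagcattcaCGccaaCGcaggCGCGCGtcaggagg
Grin2c: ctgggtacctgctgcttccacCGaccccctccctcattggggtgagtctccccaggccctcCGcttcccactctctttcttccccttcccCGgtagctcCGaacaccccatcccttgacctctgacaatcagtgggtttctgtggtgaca
Grin2d: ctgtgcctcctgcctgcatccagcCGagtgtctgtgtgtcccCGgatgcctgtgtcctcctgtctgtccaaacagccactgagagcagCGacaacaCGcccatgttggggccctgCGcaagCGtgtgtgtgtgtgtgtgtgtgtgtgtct
Grin3a: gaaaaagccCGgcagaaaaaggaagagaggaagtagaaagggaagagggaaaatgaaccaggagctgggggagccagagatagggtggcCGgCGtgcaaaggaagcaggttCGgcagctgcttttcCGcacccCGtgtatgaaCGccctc

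Grin1 held 18 CG in this window, a number that 8.46% of 33469 RefSeq upstream windows of the same length reach. Grin3a held 7, Grin2d 6 and Grin2c 4, against a median of 4 over all windows, of which 86.1% hold at least 1. Among these 4 genes the CG count thus follows neither the level, since Grin2c was the second most abundant, nor the spread between animals. These counts describe the windows and nothing about what binds there.

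The clearest feature of the family was a split between steady and variable members. Grin1, Grin2c and Grin2d differed little between animals of a group, with a within-group SD of log2 CPM of 0.10, 0.11 and 0.14. Grin2a, Grin2b and Grin3a had within-group SDs of 1.02, 0.58 and 1.01. From the lowest to the highest library, CPM differed 1.28-fold for Grin1, 1.38-fold for Grin2c and 1.62-fold for Grin2d, but 16.4-fold for Grin2a, 7.96-fold for Grin2b and 17.8-fold for Grin3a. Without the library that stood apart these last ranges were 9.97-fold, 2.73-fold and 10.1-fold, and the SDs 0.91, 0.41 and 0.98.

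The spreads were compared with those of genes of like abundance. Among the genes within 0.5 log2 CPM of each member, 98.5% had a smaller within-group SD than Grin2a, 92.9% a smaller one than Grin2b and 95.3% a smaller one than Grin3a. For Grin1, Grin2c and Grin2d the shares were 15.2%, 19.5% and 13.4%. All these shares include the library that stood apart and were not computed without it. Leaving it out took the SD of Grin2b from 0.58 to 0.41. Counting error at the median count was 6.93% of the value for Grin2a (208 reads), 5.04% for Grin2b (393 reads) and 10.3% for Grin3a (94.5 reads), well below the spread between animals.

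The vehicle group shows the split in 4 animals given neither drug. Grin1 stood at 789, 845, 672 and 788 CPM in vehicle replicates 1 to 4, Grin2c at 145, 167, 125 and 137 CPM, and Grin2d at 31.2, 38.5, 28.7 and 32.8 CPM. Grin2a stood at 15.5, 5.87, 33.0 and 6.72 CPM, Grin2b at 17.7, 17.4, 35.6 and 17.3 CPM, and Grin3a at 6.76, 1.06, 9.04 and 6.17 CPM in the same animals. Replicate 3 had the highest Grin2a, Grin2b and Grin3a of this group and the lowest Grin1, Grin2c and Grin2d, while replicate 2 had the highest Grin1, Grin2c and Grin2d and the lowest Grin2a and Grin3a.

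**Figure D2:**
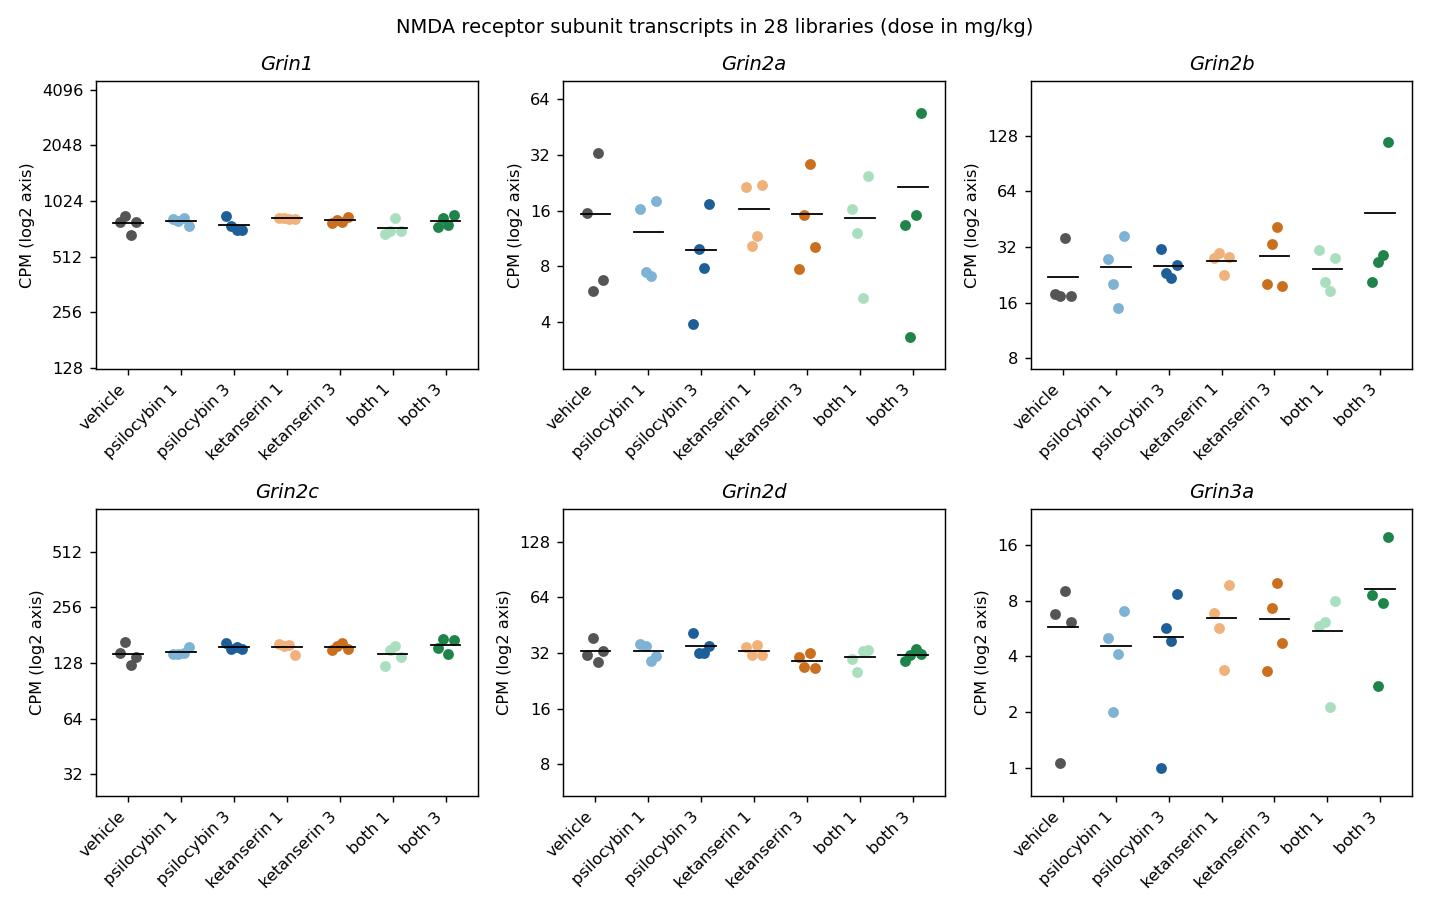
CPM (log2 axis, every panel spanning the same fold range) of the 6 subunits in each library by group (dose in mg/kg); black lines are group means of 4 libraries. Grin1, Grin2c and Grin2d span 1.28- to 1.62-fold over all libraries, while Grin2a, Grin2b and Grin3a scatter more widely, from 3.31 to 54.3 CPM for Grin2a.

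The variable members moved together between animals, as did a sizeable share of all genes. With group means removed, log2 CPM of Grin2a and Grin3a correlated across the 28 libraries with Pearson r = 0.85 and Spearman rho = 0.87 (permutation p = 1e-05 for each, the smallest that 1e+05 resamples give, adjusted p = 0.00015 over 15 pairs). Grin2a and Grin2b gave r = 0.71 and rho = 0.69 (permutation p = 3e-05 and 4e-05, adjusted p = 0.000225 and 0.0003). Without the 2 libraries farthest from the median of Grin2a, r was 0.83 and 0.61. Grin2b and Grin3a gave r = 0.46 and rho = 0.59 (permutation p = 0.0147 and 0.00129, adjusted p = 0.0245 and 0.00645), r = 0.33 without its 2 farthest libraries, and r = 0.36 without the library that stood apart (permutation p = 0.0629, adjusted p = 0.0857), so that this relation rests on few libraries. Many genes moved with these members. Of the 17403 other genes, 21.6% had a rho above 0.5 with Grin2a, 22.5% with Grin3a and 11.3% with Grin2b. A rho below -0.5 was held by 21.9%, 23.3% and 12.9% in the same order.

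Grin1 ran the other way from Grin2a and Grin3a. Against Grin3a it gave r = -0.59 and rho = -0.46 (permutation p = 0.00077 and 0.0133, adjusted p = 0.00289 and 0.0333), and against Grin2a r = -0.49 and rho = -0.50 (permutation p = 0.00779 and 0.00725, adjusted p = 0.0195 and 0.0217). Without their 2 farthest libraries r was -0.52 and -0.33, and without the library that stood apart it was -0.75 and -0.76. With Grin2b, Grin1 gave r = -0.06 and rho = -0.21 (permutation p = 0.758 and 0.279, adjusted p = 0.812 and 0.349). That r was 0.17 without the 2 farthest libraries and -0.42 without the library that stood apart. Grin1 and Grin2c were high in the same animals, with r = 0.65 and rho = 0.53 (permutation p = 0.00017 and 0.00431, adjusted p = 0.00085 and 0.0162), and r = 0.52 without the 2 farthest. Without the library that stood apart, r was 0.64 (adjusted permutation p = 0.00135) and rho 0.43 (adjusted permutation p = 0.0777), so the call for rho rests on that library. Of the 15 pairs, 9 had an adjusted p under 0.05 for r, the remaining ones of these being Grin3a with Grin2c (r = -0.46), Grin3a with Grin2d (r = -0.51) and Grin1 with Grin2d (r = 0.48), none of which passed it for rho. CPM shares one total per library, so the values of a library are not free of each other. All permutation tests of correlations shuffled the values of the libraries freely after group means were removed. Taking out the means of 7 groups leaves fewer free values than the shuffles assume, so the printed p are too small. Relations near the threshold may therefore not pass it.

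These levels followed a property of the whole library. A gene length trend was computed for each library as the Spearman correlation, across the 17404 genes, of a gene's log2 CPM minus its mean over libraries with the length of its gene model. The trend ran from -0.33 to 0.28 over the 28 libraries, so that genes with long models tended to read high in some animals and low in others. With group means removed, it correlated with Grin2a at r = 0.87 and rho = 0.85 and with Grin3a at r = 0.86 and rho = 0.89 (permutation p = 1e-05 for each, adjusted p = 6e-05 over 12 relations). For Grin2b it gave r = 0.58 and rho = 0.61 (permutation p = 0.00066 and 0.00077, adjusted p = 0.00264 and 0.00308).

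The steady members leaned to the opposite side, although model length did not separate them from the variable members. It was 5192 bases for Grin1, 4669 for Grin2c and 5256 for Grin2d, against 4259 for Grin2a, 5261 for Grin2b and 3217 for Grin3a. Grin1 gave r = -0.54 and rho = -0.55 with the trend (permutation p = 0.00241 and 0.00294, adjusted p = 0.00723 and 0.00882). Grin2c gave r = -0.39 and rho = -0.28 (permutation p = 0.0411 and 0.152, adjusted p = 0.0987 and 0.366) and Grin2d r = -0.30 and rho = -0.23 (permutation p = 0.124 and 0.226, adjusted p = 0.248 and 0.452). Without the 2 libraries farthest on the trend, r was 0.83 for Grin2a, 0.82 for Grin3a, 0.56 for Grin2b, -0.48 for Grin1, -0.21 for Grin2c and -0.22 for Grin2d. Without the library that stood apart it was 0.87, 0.84, 0.56, -0.69, -0.48 and -0.32 in the same order.

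A rise of 0.1 in the trend went with a log2 CPM higher by 0.43 for Grin2a, 0.39 for Grin3a and 0.18 for Grin2b, and with changes of -0.03, -0.02 and -0.02 for Grin1, Grin2c and Grin2d, in an edgeR fit with the trend as a covariate. Genomic span in place of model length, a choice made after seeing the data, gave r = 0.90, 0.88, 0.59 and -0.61 for Grin2a, Grin3a, Grin2b and Grin1 (permutation p = 1e-05, 1e-05, 0.00055 and 0.0006, adjusted p = 3e-05, 3e-05, 0.0009 and 0.0009 over 6 relations). The matching rho was 0.91, 0.89, 0.65 and -0.56 (permutation p = 1e-05, 1e-05, 0.00027 and 0.00214), and r without the 2 farthest libraries was 0.87, 0.85, 0.56 and -0.52. For Grin2c the span trend gave r = -0.45 and rho = -0.30 (permutation p = 0.0171 and 0.119, adjusted p = 0.0205 and 0.142), r = -0.32 without the 2 farthest libraries. For Grin2d it gave r = -0.31 and rho = -0.22 (permutation p = 0.108 and 0.250, adjusted p = 0.108 and 0.250), r = -0.29 without them.

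The share of counts from mitochondrial genes moved with the length trend. It ran from 6.98 to 11.6% of a library's counts and was lower where the trend was higher. With group means removed, it gave r = -0.81 and rho = -0.81 with the trend over the 28 libraries (permutation p = 1e-05 for each, unchanged by adjustment over this single relation, which was chosen after seeing the data). Without the 2 libraries farthest on the trend r was -0.75, and without the library that stood apart it was -0.79. Its part in the levels of the subunits was not tested.

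No relation of the subunits with myelin content passed the test. The mean deviation of 10 myelin and mature oligodendrocyte markers gave r from -0.17 for Grin2a to 0.16 for Grin2c over the 6 members, with permutation p from 0.385 to 0.966 and adjusted p from 0.577 to 0.966. The matching rho ran from -0.17 to 0.13. Without the 2 libraries farthest in myelin content, r was -0.33 for Grin2a, -0.35 for Grin3a and -0.14 to 0.16 for the others.

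**Figure D3:**
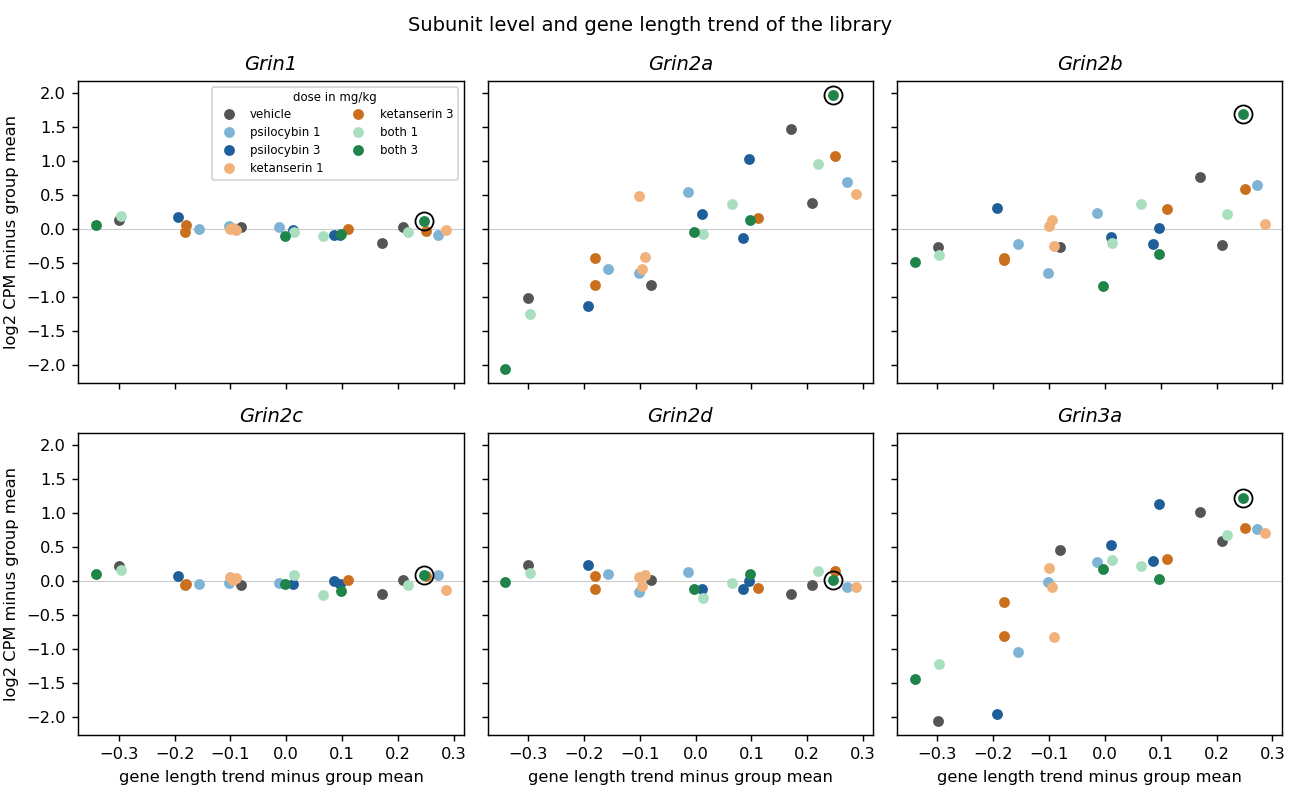
Log2 CPM of each subunit against the gene length trend of its library, both with the group mean removed; points are the 28 libraries coloured by group (dose in mg/kg), and the ring marks replicate 4 of the group given both drugs at 3 mg/kg. Grin2a (r = 0.87), Grin3a (r = 0.86) and Grin2b (r = 0.58) climb with the trend, and Grin1 (r = -0.54) declines over a far smaller range.

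The genes with the pattern most like each member were taken as the 3 named genes with the highest Spearman rho over the 28 libraries, group means removed, given as a description. Grin2a was nearest to Prkca (rho = 0.98), a protein kinase C, then Myo5a (0.97), a vesicle motor, and Atp8a1 (0.97), a lipid flippase. Grin3a was nearest to Cnbd2 (0.96), Snx30 (0.96) and Cds2 (0.95). Grin2b was nearest to Phip (0.84), Thoc2 (0.83), an mRNA export factor, and Foxp1 (0.83), a transcription factor. Prkca spans 393.8 kb and Foxp1 328.0 kb, and the shortest span among these 9 genes was 38.6 kb, that of Cds2.

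Grin1 was nearest to Cacnb1 (rho = 0.82), a calcium channel subunit, Ap2a1 (0.80), an endocytic adaptor, and Krba1 (0.80), whose spans were 20.5 to 29.4 kb. Grin2c was nearest to Nt5dc2 (0.78), Kirrel3 (0.72), which spans 128.8 kb, and Patz1 (0.71), and Grin2d to Atp13a2 (0.73), AABR07048624.1 (0.69) and LOC100360154 (0.68). Without the library that stood apart, Prkca, Phip and Atp13a2 still ranked 1 for their member, whereas Cacnb1 ranked 14, Patz1 32 and Cds2 39, so these orders rest in part on it. All these values share the library totals.

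No subunit transcript was called in any comparison of the groups. Tests were edgeR's quasi-likelihood F test with Benjamini-Hochberg adjustment over the 17404 genes, and genes with adjusted p below 0.05 count as called. Over the 15 comparisons the 90 member values had adjusted p from 0.693 to 1.00, and 4 of them had an unadjusted p under 0.05, against 2.99% of all gene values. Calls were almost absent genome-wide as well. They made up 0% of tested genes in 14 of the 15 comparisons and 0.00575%, 1 gene, in both drugs at 3 mg/kg against vehicle, so a count of 0 among 6 members does not set the family apart. DESeq2 called 0 to 6 genes in the 15 comparisons and no member. The test of any difference among the 7 groups called 0.0172% of genes and no member, with unadjusted p of 0.119 for Grin2b, 0.756 for Grin2a and 0.707 for Grin3a.

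For the steady subunits the intervals were narrow. Against vehicle over the 6 treated groups, the log2 fold change of Grin1 lay between -0.09 and 0.09 with standard errors (SE) of 0.08, that of Grin2c between -0.01 and 0.15 with SE of 0.09, and that of Grin2d between -0.18 and 0.09 with SE of 0.11. The lowest and highest 95% bounds over these groups were 0.839- and 1.20-fold for Grin1, 0.877- and 1.26-fold for Grin2c and 0.753- and 1.25-fold for Grin2d. Mean Grin1 was 773 ± 72.7 CPM (SD, n = 4) in vehicle and 727 ± 66.7 to 825 ± 6.66 CPM in the treated groups. Mean Grin2c was 144 ± 17.7 CPM in vehicle and 143 ± 15.4 to 160 ± 13.1 CPM in the treated groups, and mean Grin2d was 32.8 ± 4.15 CPM in vehicle and 29.0 ± 2.65 to 34.97 ± 4.18 CPM.

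For the variable subunits the same comparisons were far less precise. SEs against vehicle were 0.66 for Grin2a, 0.41 for Grin2b and 0.59 to 0.60 for Grin3a. Log2 fold changes ran from -0.64 (psilocybin at 3 mg/kg) to 0.49 (both drugs at 3 mg/kg) for Grin2a, from 0.15 to 1.14 for Grin2b and from -0.34 to 0.67 for Grin3a. The 95% bounds reached 0.248- and 3.59-fold for Grin2a and 0.335- and 3.72-fold for Grin3a, so changes of several fold would lie within them. In each of the 13 pairwise comparisons the ranges of the groups overlapped for all 6 members, and 1.14 to 3.35% of tested genes had groups that did not overlap.

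**Figure D4:**
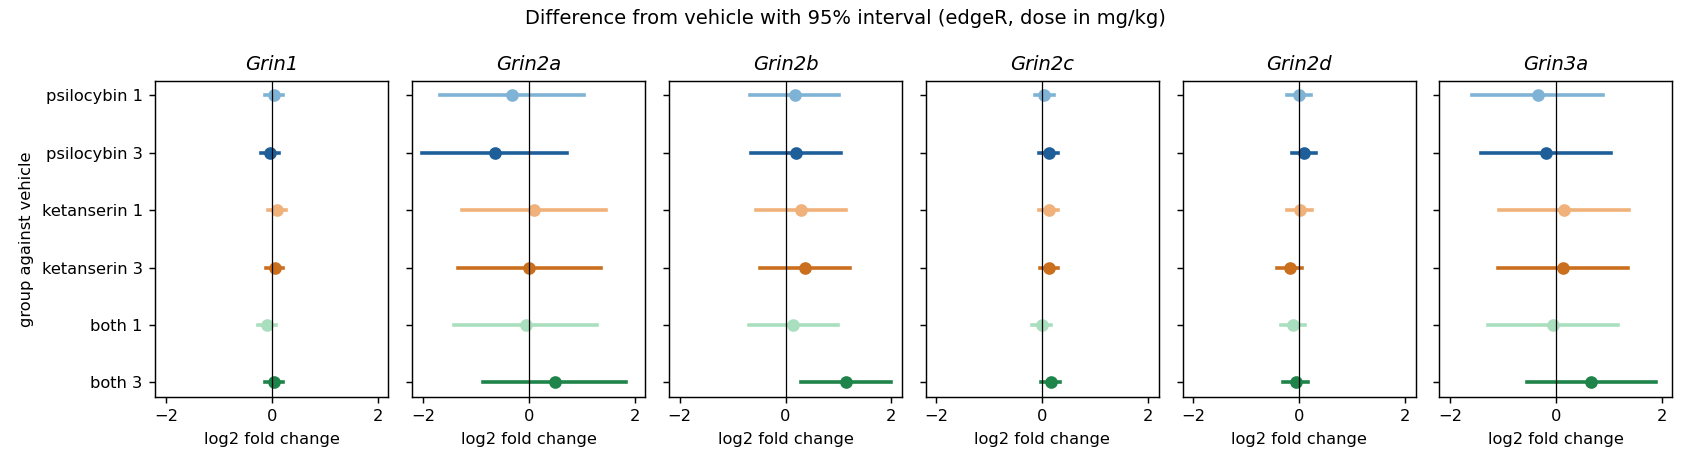
Log2 fold change against vehicle (points) with its 95% interval (lines) from edgeR for the 6 subunits and the 6 treated groups (dose in mg/kg). Intervals of Grin1, Grin2c and Grin2d are short and hold 0. Those of Grin2a and Grin3a extend more than 1 log2 unit to either side of their points. Only the interval of Grin2b for both drugs at 3 mg/kg leaves out 0.

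Psilocybin alone is the comparison that asks whether the psychedelic leaves a trace in these transcripts after 24 h. Grin2a stood at 16.4, 7.48, 7.13 and 18.1 CPM with psilocybin at 1 mg/kg and at 3.90, 9.98, 7.84 and 17.5 CPM at 3 mg/kg. Both sets lie inside the range of the 4 vehicle animals except for the lowest value, 3.90 CPM. The log2 fold changes were -0.31 ± 0.66 (SE) at 1 mg/kg and -0.64 ± 0.66 at 3 mg/kg, with edgeR adjusted p of 1.00 and 0.997. Grin2b stood at 27.5, 20.0, 14.9 and 36.7 CPM at 1 mg/kg and at 31.2, 23.1, 21.6 and 25.4 CPM at 3 mg/kg, for log2 fold changes of 0.17 ± 0.41 and 0.20 ± 0.41. Grin3a stood at 5.04, 1.99, 4.10 and 7.04 CPM and at 0.994, 5.70, 4.86 and 8.70 CPM, for -0.34 ± 0.60 and -0.18 ± 0.60. Single libraries turned the sign of some of these values. Without vehicle replicate 3, Grin2a gave 0.40 at 1 mg/kg and 0.07 at 3 mg/kg, Grin2b 0.51 and 0.53, and Grin3a -0.03 and 0.12. Without replicate 4 of psilocybin at 3 mg/kg, Grin2a gave -1.07 and Grin3a -0.57.

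The dose of psilocybin made no difference that the test could call. At 3 against 1 mg/kg the log2 fold changes of the 6 members ran from -0.33 for Grin2a to 0.16 for Grin3a, with a median of 0.06 and edgeR adjusted p of 1.00. Over all genes the median was 0.01.

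Ketanserin alone gave values of the same kind. Grin2a stood at 21.6, 10.3, 11.6 and 22.2 CPM at 1 mg/kg and at 7.69, 15.2, 28.7 and 10.1 CPM at 3 mg/kg, all within the vehicle range. Grin2b stood at 27.7, 29.5, 22.5 and 28.2 CPM and at 20.1, 33.3, 40.8 and 19.8 CPM, for log2 fold changes of 0.29 ± 0.41 and 0.37 ± 0.41 (SE). Grin3a stood at 6.86, 5.66, 3.39 and 9.75 CPM and at 3.32, 7.32, 10.01 and 4.72 CPM. Without vehicle replicate 3, Grin2b gave 0.63 and 0.71. At 1 mg/kg 6 of 6 members had a log2 fold change above 0, with a median of 0.11 against -0.02 for all genes. At 3 mg/kg 5 of 6 did, but none was called at either dose. Over all genes 44.2% and 45.4% were above 0 at 1 and 3 mg/kg. At 3 against 1 mg/kg of ketanserin the log2 fold changes of the members ran from -0.19 to 0.08 (edgeR adjusted p = 1.00). Grin1 was at its most even with ketanserin at 1 mg/kg, 818 to 832 CPM in the 4 animals.

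With both drugs at 1 mg/kg, Grin1 stood at 675, 704, 825 and 705 CPM. Against ketanserin alone at 1 mg/kg its log2 fold change was -0.18, with an unadjusted edgeR p of 0.0325 and an adjusted p of 1.00. The groups overlapped through replicate 3 of the group given both drugs, and over the fits that each left out 1 of the 8 libraries the value ran from -0.24 to -0.15, with unadjusted p from 0.00653 to 0.104. In this comparison 6 of 6 members were below 0, from -0.21 to -0.12, with a median of -0.15 against 0.02 for all genes. Over all genes 53.3% were above 0. Against vehicle the value for Grin1 was -0.09.

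Both drugs at 3 mg/kg against vehicle held the largest of the 90 member differences, in Grin2b, and 1 library decided its size. Grin2b stood at 20.7, 26.4, 28.8 and 119 CPM in that group, and the 119 CPM belong to the library that stood apart. The other 3 values fell within the vehicle range of 17.3 to 35.6 CPM. The log2 fold change was 1.14 ± 0.41 (SE), with an unadjusted edgeR p of 0.0109 and an adjusted p of 0.999. Without that library it was 0.20 ± 0.29, with an adjusted p of 1.00.

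Leaving out the same library brought down the other Grin2b values with an unadjusted p under 0.05. Against psilocybin alone at 3 mg/kg the log2 fold change was 0.94 with it, at an edgeR adjusted p of 0.693, and 0.00 without it. Against ketanserin alone at 3 mg/kg, where the unadjusted edgeR p was 0.0721, it was 0.77 with it and -0.17 without it. Against both drugs at 1 mg/kg it was 0.99 with it, at an adjusted p of 1.00, and 0.05 without it. Grin2a in this group stood at 13.4, 3.31, 15.1 and 54.3 CPM and Grin3a at 8.58, 2.77, 7.75 and 17.7 CPM, again highest in that library. Their log2 fold changes against vehicle were 0.49 and 0.67 with it and -0.52 and 0.15 without it. Grin1 in this library, at 859 CPM, was the highest of all 28, so Grin1 and the variable members were high together there, and its share of summed subunit FPKM, 66.5%, was the lowest.

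The interaction asks whether the effect of psilocybin differed with ketanserin on board. At 1 mg/kg the interaction was 0.15 ± 0.93 (SE, log2) for Grin2a, -0.31 ± 0.58 for Grin2b and 0.13 ± 0.84 for Grin3a, and at 3 mg/kg 1.12 ± 0.93, 0.57 ± 0.58 and 0.72 ± 0.84. Without the library that stood apart, the values at 3 mg/kg were 0.11 for Grin2a, -0.37 for Grin2b and 0.19 for Grin3a. Adjusted p over the 6 members was 0.938 to 0.983 and 0.993 to 0.997 in edgeR. These SEs are the widest of the set, since 4 groups enter each value.

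Because the variable members follow the gene length trend, the comparisons were also fitted with the trend as a covariate. The group means of the trend ran from -0.13 with psilocybin at 3 mg/kg to 0.04 with both drugs at 1 mg/kg, within-group SDs being 0.13 to 0.25. With the covariate, SEs against vehicle were 0.36 to 0.37 for Grin2a and 0.32 to 0.33 for Grin3a, about as small as that of Grin2b (0.35 to 0.36). No member was called, but single values moved by more than 1.5 times. Psilocybin at 3 mg/kg gave 0.06 for Grin2a in place of -0.64, and ketanserin at 1 mg/kg gave 0.81 for Grin2a and 0.70 for Grin3a, with unadjusted edgeR p of 0.041 and 0.0426 and an adjusted p of 0.981 for both.

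In the main fit the interaction at 1 mg/kg was 0.15 ± 0.93 (SE) for Grin2a and 0.13 ± 0.84 for Grin3a, with intervals that held 0. With the length trend as covariate it was -1.32 ± 0.55 and -1.06 ± 0.49. Unadjusted edgeR p were then 0.0239 and 0.0376, with an adjusted p of 0.913 for both. With the span trend as covariate the interactions were -1.34 and -1.04. Grin2b with both drugs at 3 mg/kg stayed at 0.94 ± 0.35 (adjusted p = 0.902). The trend is computed from the same libraries and holds the members among its genes, so this fit describes the values at equal trend and does not say which fit is right.

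**Figure D5:**
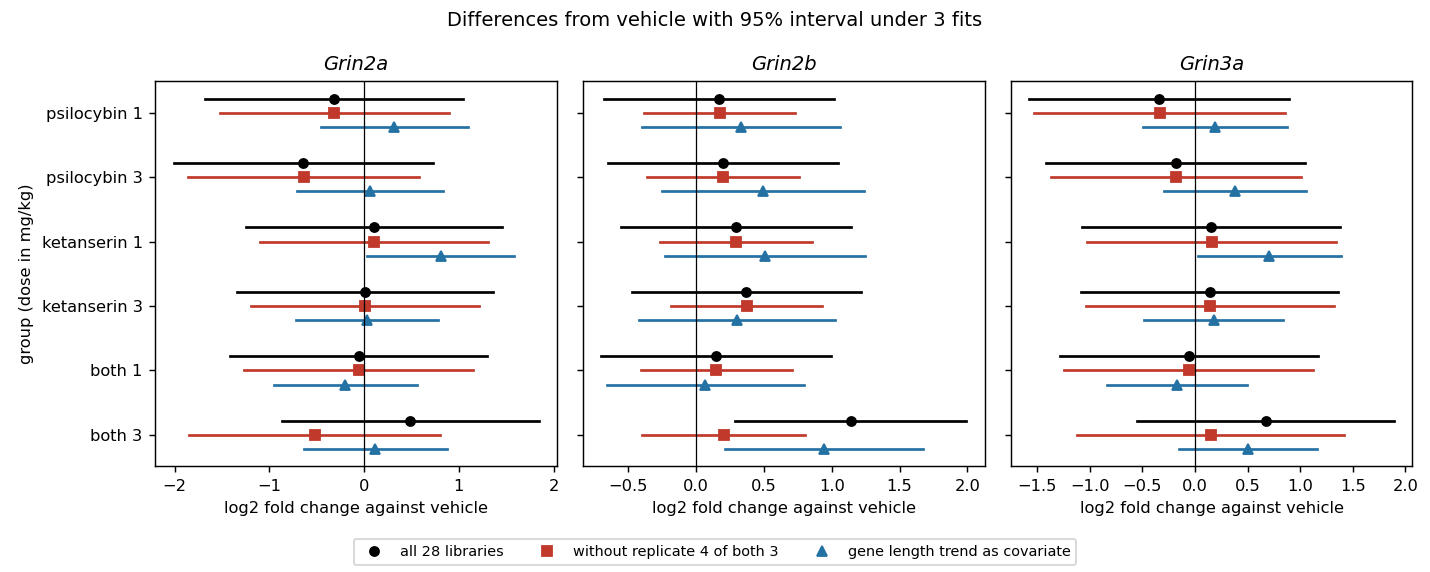
Log2 fold change against vehicle with its 95% interval (edgeR) for Grin2a, Grin2b and Grin3a under 3 fits: all 28 libraries (black circles), without replicate 4 of both drugs at 3 mg/kg (red squares) and with the gene length trend as covariate (blue triangles); the panels have separate horizontal scales. Grin2b with both drugs at 3 mg/kg moves from 1.14 to 0.20 without that library, and the covariate shortens the intervals of Grin2a and Grin3a.

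The balance of Grin2a to Grin2b, which is known to move toward GluN2A as the forebrain matures, needs no library scaling. Not corrected for the length of the gene models, Grin2a counts were 0.125 to 0.927 times those of Grin2b, with a median of 0.502, and stayed below 1 in all 28 libraries. Per length, in FPKM, the ratio had a median of 0.621 and was above 1 in 3 libraries, with a highest value of 1.15. The mean log2 ratio of counts was -0.81 ± 0.77 (SD, n = 4) in vehicle. It was -1.06 ± 0.28 and -1.55 ± 1.04 with psilocybin at 1 and 3 mg/kg, -0.79 ± 0.56 and -0.999 ± 0.37 with ketanserin, and -0.91 ± 0.66 and -1.42 ± 1.07 with both drugs. Exact two-sided permutation tests against vehicle gave p of 0.286 to 0.971 (adjusted p 0.914 to 0.971 over 6 comparisons), where 70 arrangements allow no p below 0.0286. The lowest ratios, near 0.125, were those of psilocybin at 3 mg/kg replicate 1 and both drugs at 3 mg/kg replicate 2, the libraries with trends of -0.33 and -0.31.

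Transcripts of proteins that hold, modulate or supply the receptor were read from 4 lists. Of the scaffold and surface partners 26 symbols were tested as 28 records (Cask and Shank2 have 2 records each, which may share reads), and all of 25 calcium and kinase signalling genes, 13 co-agonist genes and 12 genes of glutamate release and clearance were tested. In the 6 comparisons with vehicle, 0 genes of these lists were called in either direction by edgeR, with adjusted p from 0.997 to 1.00, and each list had 0 or 1 gene with an unadjusted p under 0.05 in each comparison. The scaffold list had 22 of 28 records above 0 with both drugs at 3 mg/kg (median 0.17 against -0.02 for all genes) and 20 of 28 with ketanserin at 3 mg/kg (median 0.07), but 10 of 28 with psilocybin at 3 mg/kg (median -0.06). Over all genes 46.4%, 45.4% and 47.8% were above 0 in the same order. List values were read with all 28 libraries only, so those with both drugs at 3 mg/kg include the library that stood apart. The summed CPM of the scaffold list was 5646 at the median library and 8963 at the highest.

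The partner with the smallest unadjusted p in each list and comparison is given as a log2 fold change, none of them called. Among scaffolds, psilocybin at 1 mg/kg gave 1 of the 2 Shank2 records (-3.62 ± 1.61, SE). The other Shank2 record had an unadjusted edgeR p not under 0.05 there. Dlg4, which encodes PSD-95, was the gene with psilocybin at 3 mg/kg (0.20 ± 0.11) and ketanserin at 1 mg/kg (0.23 ± 0.11). The subunit gene Grin3b was that with ketanserin at 3 mg/kg (0.67 ± 0.39) and both drugs at 1 mg/kg (0.60 ± 0.39). Shank1 was that with both drugs at 3 mg/kg (0.49 ± 0.21). In signalling the partners were the kinase genes Camk2d (-0.20 ± 0.12) and Camk2g (-0.97 ± 0.54) with psilocybin at 1 and 3 mg/kg. With ketanserin at 1 and 3 mg/kg they were Ppp1r9b (0.31 ± 0.13), a spine protein, and Ptpn5 (-0.18 ± 0.10), the phosphatase STEP. With both drugs at 1 and 3 mg/kg they were Src (-0.10 ± 0.08) and the calcineurin gene Ppp3ca (0.38 ± 0.24).

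For the co-agonist, Srr, the enzyme that makes D-serine, stood at -0.28 ± 0.11 (SE) with psilocybin at 1 mg/kg, and Shmt2, a glycine-forming enzyme, at 0.33 ± 0.21 at 3 mg/kg. Phgdh, of serine synthesis, stood at 0.43 ± 0.24 with ketanserin at 1 mg/kg and Shmt1 at -1.37 ± 0.62 at 3 mg/kg. The transporter genes Slc1a5 (-0.55 ± 0.25) and Slc7a10 (-0.29 ± 0.19) were those with both drugs at 1 and 3 mg/kg. For glutamate they were Got2 (0.10 ± 0.08) with psilocybin at 1 mg/kg, the vesicular transporter gene Slc17a6 with psilocybin at 3 mg/kg (-0.68 ± 0.28), ketanserin at 1 mg/kg (-0.71 ± 0.28) and both drugs at 3 mg/kg (-0.46 ± 0.28), its relative Slc17a7 with ketanserin at 3 mg/kg (0.14 ± 0.09) and the uptake gene Slc1a1 with both drugs at 1 mg/kg (0.12 ± 0.07).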

How the data were processed

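Per the file headers, the authors deposited raw counts per gene and FPKM values for 28 libraries; per the submitters' processing notes the build was rn6 and the tools named are featureCounts 1.5.0-p3, HISAT2 2.0.5 and StringTie 1.3.3b. Per the labels' protocols, poly-A RNA went into strand-marked libraries. Whether counting used strand is not given in the sources. Counts were tested in R 4.3.3 with edgeR 4.0.16 (filterByExpr by group, TMM, robust quasi-likelihood F test, 1 coefficient for each of 7 groups, 21 residual degrees of freedom), and DESeq2 1.42.0 was an alternative. Log2 CPM used a prior count of 0.5. The fit was tested on simulated data. FPKM served for levels between genes only. The 3842 unnamed transcripts stayed in totals and tests. Replicate numbers, given in accession order, pair nothing; the protocol calls the 4 samples per group biological replicates. Named genes were the members, the partner with the smallest p in each list and comparison, and the 3 genes most like each member. The members and lists were chosen with earlier results of these data known. Alternatives changed scaling, filter, tool, libraries and covariates.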

Additional observations from a re-analysis of the deposited data

Results flagged for a closer look

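In 49 groups of 4 libraries (6 members and the Grin2a to Grin2b ratio in 7 groups), 3 had a library far from the other 3 by Dixon's test, and chance flags about 1 in 20 groups. Grin2b stood at 119 CPM in replicate 4 of both drugs at 3 mg/kg against 20.7 to 28.8 CPM in the others, and this library also stands apart in its genes at a count of 0. Grin2b stood at 35.6 CPM in vehicle replicate 3 against 17.3 to 17.7 CPM in the others. Grin2c stood at 157 CPM in replicate 4 of psilocybin at 1 mg/kg against 143 to 144 CPM in the others.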

How the results depend on the processing

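No member was called under any alternative: of 1356 member values, 0 had an adjusted p under 0.05 and the lowest was 0.222. A change of sign was counted only where an unadjusted p was under 0.05 in either fit. By that rule there were 2, the interactions at 1 mg/kg with the gene length trend as covariate (Grin2a -1.32, Grin3a -1.06). Their main intervals held 0, so the main fit gave them no direction, and the cause was not tested. The bare sign differed for 108 of the 1356, 92 of them on leaving out 1 library. Without replicate 4 of both drugs at 3 mg/kg, r passed the threshold for Grin1 with Grin2b (-0.42), Grin2a with Grin2c (-0.52) and the length trend with Grin2c (-0.48). It no longer passed for Grin2b with Grin3a (0.36). The newly passing relations did not pass for rho, with adjusted permutation p of 0.0943, 0.0855 and 0.160. Leaving out their 2 farthest libraries as well gave r of -0.20, -0.39 and -0.29. Counts of genes called over all genes moved as follows. With no filter, both drugs at 3 mg/kg gave 0. With the length trend it gave 0 and psilocybin 3 against 1 mg/kg gave 5. With the myelin covariate, ketanserin at 1 mg/kg, both drugs against ketanserin alone at 3 mg/kg and any difference gave 1 each. With only the groups compared, psilocybin at 1 and 3 mg/kg gave 1 each, ketanserin at 1 and 3 mg/kg 2 and 1, both drugs at 1 mg/kg 2, and both drugs at 3 mg/kg against psilocybin or ketanserin alone 1 each. DESeq2 gave 3 for psilocybin at 1 mg/kg, 1 for ketanserin at 1 and at 3 mg/kg, 1 for both drugs at 1 mg/kg, 1 and 1 for both against psilocybin alone at 1 and 3 mg/kg, 5 for both against ketanserin alone at 3 mg/kg, 6 for psilocybin 3 against 1 mg/kg and 15 for any difference. Leaving out 1 library at a time gave 0 to 4 for psilocybin 3 against 1 mg/kg (4 without psilocybin at 1 mg/kg replicate 1), 1 to 3 for any difference, and 0 to 1 for both drugs at 1 and at 3 mg/kg against vehicle, both against psilocybin alone at 1 and at 3 mg/kg, both against ketanserin alone at 3 mg/kg and the interaction at 1 mg/kg. No paired analysis was possible because the labels give no replicate numbers. Depth limits Grin3a most, at 14 to 232 reads.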
